A study of Mus musculus with 5 samples.

Results

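The stretch of mouse chromosome 7 described here lies on the centromeric side of the β-globin locus, between about 16.3 and 37.0 Mb from it. It was taken as the probes at places 20001 to 30000 in the order of chromosome 7, which are 10000 of the 57765 probes of this chromosome and of the 385000 probes on the array. The stretch was chosen by results already known for these arrays, because it holds places with high running means in the untreated samples, and the viewpoint from which distances are counted is the place of the highest untreated running mean. The running means of the same arrays are therefore given below as a description, without a test. Distances in Mb are estimates from an average of 60 kb per 29 probes, since the deposited files give no probe position, and no genes were assigned for the same reason.

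The β-major promoter was the viewpoint of a 4C experiment in primary cells from mouse fetal livers of embryonic day 14.5, a tissue made up largely of erythroid precursors that transcribe β-globin strongly. The 5 samples were 2 of untreated cells (A and B), 2 of cells kept in α-amanitin for 5 h (A and B) and 1 of cells kept in DRB at 100 µM for 3 h. The untreated cells were kept in the same differentiation medium, also for 5 h, so they are no time-matched control for DRB. The dose of α-amanitin is 100 mg/ml in the sample labels and 100 µg/ml in the methods of the study. Cy3 was the dye of both A samples and Cy5 that of both B samples and of DRB, so replicate letter and dye cannot be told apart. By the methods of the study, each array took 2 samples that were processed independently, in alternate dyes. The study also calls its replicate experiments independent. The labels do not say whether A and B came from separate pools of livers, and the p-values below measure the spread between these samples only.

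In 4C, chromatin is fixed, digested and religated, and the pieces of DNA captured by one bait fragment, the viewpoint, are amplified and read on a microarray. A run of bright neighbouring probes then marks DNA that was often close to the viewpoint. The β-globin genes are driven in erythroid cells by a distant enhancer cluster, the locus control region, and the active locus is known to contact other parts of its chromosome. α-Amanitin blocks RNA polymerase II in initiation and elongation, whereas DRB inhibits the kinases that release the polymerase into productive elongation. The comparison asks which of the distant contacts of the locus are still seen when transcription is blocked.

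The deposited values are scanner intensities of single probes, without normalization. Over all probes of an array the median signal lay between 418.9 and 677.1, and 24 to 340 probes per array stood at the highest value found in any file (0 to 17 of them in the stretch). Arrays have no read depth. Their small number limits the precision, and the study adds that rare ligation products can be missed under sub-optimal conditions. Windows of 29 neighbouring probes were averaged, and each array had its own cut-off, set where windows of probes in random order would make up under 5% of those at or above it. This threshold was 6834 and 7018 for untreated A and B, 7799 and 7022 for α-amanitin A and B, and 8045 for DRB.

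Most of the stretch was quiet. The median running mean was 947.2 and 996.5 in untreated A and B, 907.2 and 883.4 in α-amanitin A and B, and 1313 in DRB, which is 0.12 to 0.16 of the threshold of each array. Of the 9972 windows, those above threshold were 230 (2.31%) and 239 (2.4%) in untreated A and B, 121 (1.21%) and 245 (2.46%) in α-amanitin A and B, and 42 (0.421%) in DRB. All 5 shares were below those of the whole chromosome with the viewpoint included, which were 3.82%, 4.08%, 2.27%, 3.73% and 1.96% of 57737 windows in the same order. Both untreated arrays passed together in 158 windows (1.58%, against 2.98% on chromosome 7) and both α-amanitin arrays in 67 (0.672%, against 1.62%). All 4 of these arrays passed in 48 windows, and DRB passed as well in 22 of them. On the other 6 chromosomes of the array, between 0.0242% and 0.0686% of the windows reached the same thresholds.

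Neighbouring windows share all but 1 of their probes, so windows above threshold come in runs by construction. Joined where they shared probes, the windows that passed in both untreated arrays formed 5 regions, numbered R1 to R5 from the centromeric end, of 32 such regions on chromosome 7. They cover 300 of the 10000 probes, and 160 of the 9972 windows lie wholly inside them. Of the windows above threshold, 68.7% and 66.9% in untreated A and B, 39.7% and 61.2% in α-amanitin A and B, and 100% in DRB lay wholly inside. Counting the 440 windows that share at least 1 probe with a region, the shares were 82.2%, 82.4%, 66.1%, 82.9% and 100% in the same order. The untreated shares follow from the choice of the regions. Of the 5 regions, 3 (R1, R3 and R5) were double positive after α-amanitin, that is, at least 1 window passed in both α-amanitin arrays. The other 2 (R2 and R4) passed in α-amanitin B alone. On all of chromosome 7, the windows that passed in both α-amanitin arrays formed 18 regions, beside the 32 untreated ones. How many of the 32 were double positive after α-amanitin was not counted. These calls depend on the setting: with a running median R1 and R4 were double positive and R3 and R5 were not, with windows of 15 probes only R1 was, and without α-amanitin A all 5 passed in the array that was left. After DRB, 3 regions (R1, R2 and R5) passed in the single array. All 3 regions that were double positive after α-amanitin, and all 3 places above threshold after DRB, lay on an untreated region.

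**Figure D1:**
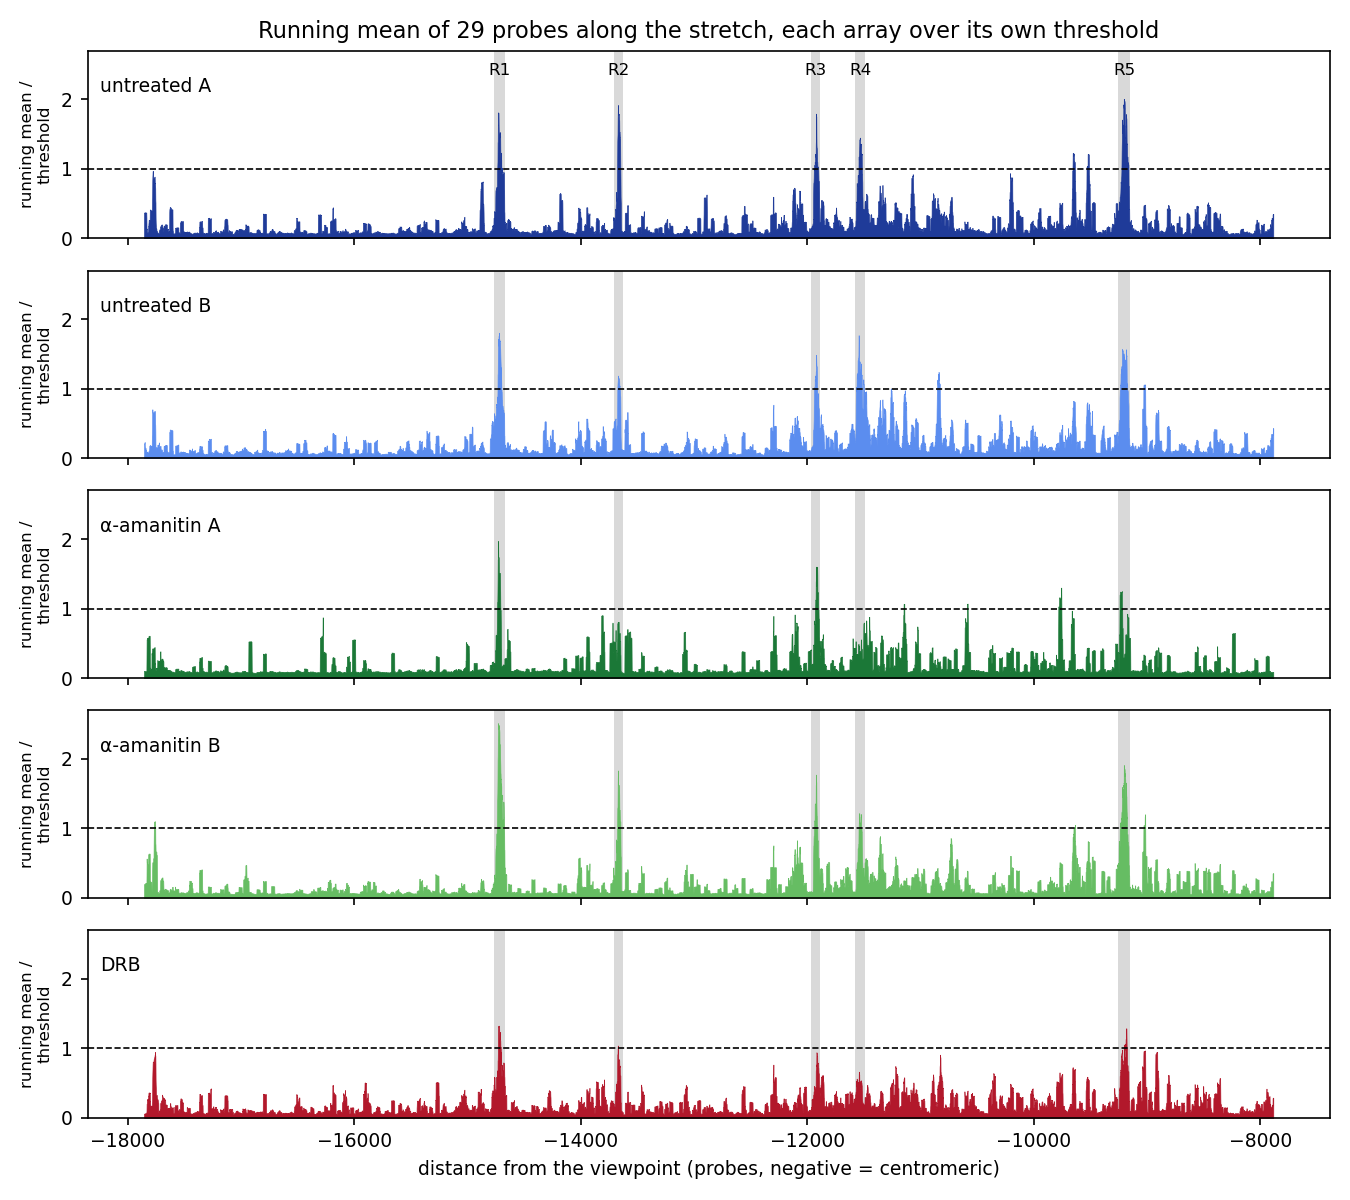
Running mean of 29 probes divided by the threshold of that array (vertical axis, no unit) against the distance from the viewpoint in probes (horizontal axis), with 1 panel for each of the 5 arrays. The dashed line is the threshold and grey bands are R1 to R5. The same 5 places stand out in both untreated arrays and in α-amanitin B, R2 and R4 stay below the line in α-amanitin A, and R3 and R4 stay below it in DRB.

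R1 lay at probes 23123 to 23183, about 30.4 Mb from the viewpoint, and was the farthest of the 5. Its highest running mean was 12394 and 12677 in untreated A and B, 15402 and 17676 in α-amanitin A and B, and 10678 in DRB. All 5 arrays were above threshold, and at this peak both α-amanitin arrays were above both untreated ones. Relative to the thresholds the peaks were 1.81 and 1.81 in the untreated arrays, 1.97 and 2.52 after α-amanitin and 1.33 after DRB. The signal over the whole region, as log2 of the mean quantile normalized signal, was 0.10 higher after α-amanitin. This is less than the SD of 0.70 between the 2 α-amanitin arrays. By array it was 13.30 and 13.18 in untreated A and B and 12.85 and 13.83 in α-amanitin A and B. Over the whole region α-amanitin A was thus below both untreated arrays. R1 held the highest window of the stretch in untreated B, in both α-amanitin arrays and in DRB. Among the 33 windows of R1, the highest window began within 8 probes of the same place in all 5 arrays. Here and below only the windows of a region were searched, so its length bounds this spread.

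R2 lay at probes 24181 to 24229, about 28.3 Mb from the viewpoint. Its highest running mean was 13119 and 8345 in untreated A and B, 6321 and 12890 in α-amanitin A and B, and 8370 in DRB. One array of each pair was high and the other lower, so the 2 conditions overlapped. α-Amanitin A reached 0.81 of its threshold and α-amanitin B 1.84, a wider gap than between untreated A at 1.92 and untreated B at 1.19. The log2 signal after α-amanitin minus the untreated one was -0.32, with an SD of 0.54 between the untreated and 0.88 between the α-amanitin arrays (n = 2 each). DRB passed its threshold at 1.04, in 3 windows. Among the 21 windows of R2, the peak began within 5 probes of the same place in all 5 arrays, also in the one that did not pass.

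R3 lay at probes 25918 to 25971, about 24.7 Mb from the viewpoint. Its highest running mean was 12274 and 10446 in untreated A and B, 12514 and 12470 in α-amanitin A and B, and 7589 in DRB. The α-amanitin arrays were nearly equal, and DRB was the lowest. Relative to the thresholds the untreated arrays stood at 1.8 and 1.49 and the α-amanitin arrays at 1.6 and 1.78, so the conditions overlapped. The difference in log2 signal was 0.13 with SDs of 0.25 (untreated) and 0.02 (α-amanitin). DRB reached 0.943 of its threshold. Among the 26 windows of R3, the peak began within 3 probes of the same place in all 5 arrays, the smallest spread among the 5 regions.

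R4 lay at probes 26310 to 26366, about 23.9 Mb from the viewpoint. Its highest running mean was 9916 and 12430 in untreated A and B, 4348 and 8579 in α-amanitin A and B, and 5348 in DRB. Both α-amanitin arrays and DRB were below both untreated arrays, and R4 was the only region of the 5 for which this held. The α-amanitin peaks were 0.558 and 1.22 of the thresholds, against 1.45 and 1.77 in untreated cells, and DRB reached 0.665. The difference in log2 signal was -0.80, with SDs of 0.18 (untreated) and 0.65 (α-amanitin). Since R4 was selected on untreated values, a lower value in the other arrays is in part built in. Just past R4 on the viewpoint side, α-amanitin A rose to 0.799 of its threshold in a window that shares probes with R4.

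R5 lay at probes 28632 to 28710, about 19 Mb from the viewpoint, and was the longest with 79 probes. Its highest running mean was 13727 and 11038 in untreated A and B, 9767 and 13438 in α-amanitin A and B, and 10360 in DRB. All 5 arrays passed, but in different parts of the region. In α-amanitin A the peak of 1.25 began at probe 28635, and only 4 windows of R5 passed there. From probe 28652 to 28708, α-amanitin A reached no more than 0.64 of its threshold, whereas untreated A reached 2.01, untreated B 1.57, α-amanitin B 1.91 and DRB 1.29. The windows that passed in both α-amanitin arrays spanned probes 28620 to 28663, which begin outside R5 on its centromeric side. In this span α-amanitin A passed in 16 windows, and DRB stayed below threshold at 0.983. The places of the peaks were spread over 37 probes between the 5 arrays, more than in any other of the regions. R5 also had the most windows to search, 51. R2, R3 and R4 are, by the estimated distances, the regions nearest to the positions that led to the choice of the stretch. The study used cryo-FISH on chromosome 7 regions that were double positive in untreated cells but not after α-amanitin. Those it tested still overlapped β-globin above background after α-amanitin, and it regards them as false negatives of 4C. Whether R2 or R4 was among them cannot be settled here, since the probes have no positions.

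**Figure D2:**
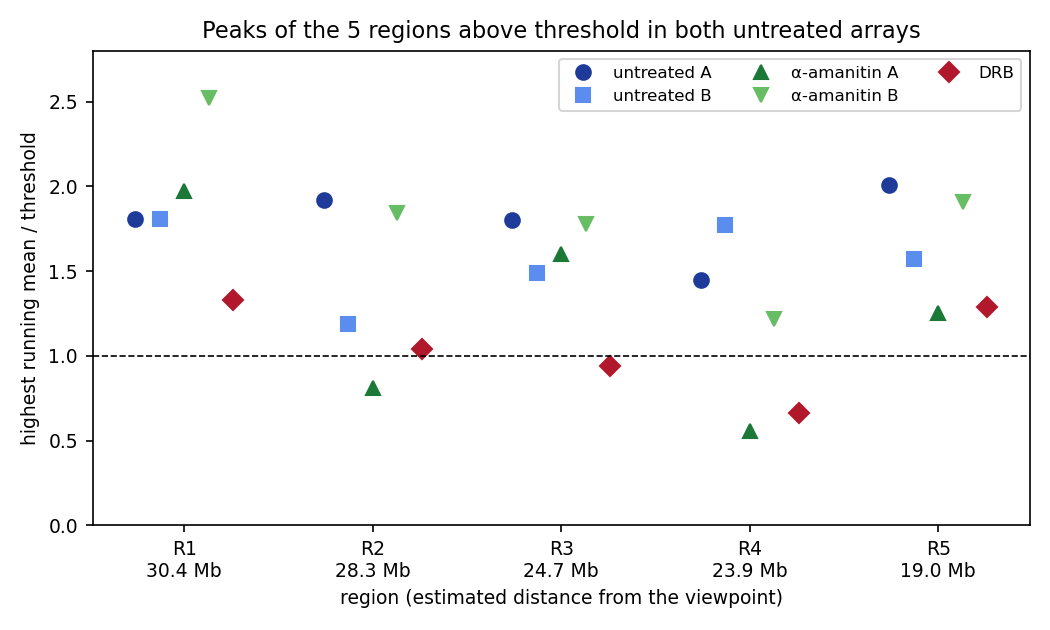
Highest running mean in each of R1 to R5 divided by the threshold of that array (vertical axis, no unit), with 1 point per array. The dashed line is the threshold. α-Amanitin A lies below the line in R2 and R4, and DRB lies below it in R3 and R4. There are no error bars, since each point is a single array.

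The peaks rested on several probes each and not on 1. A probe was called bright when it was among the highest 5% of chromosome 7 in its own array, which means a signal of at least 8409 and 9421 in untreated A and B, 2578 and 7810 in α-amanitin A and B, and 9695 in DRB. The peak windows of the 5 regions held, of 29 probes, 9 to 14 and 7 to 15 bright ones in untreated A and B, 5 to 11 and 10 to 17 in α-amanitin A and B, and 5 to 9 in DRB. The brightest probe alone gave 11.1% (R1, α-amanitin B) to 27.9% (R2, α-amanitin A) of the sum of a peak window. The probes of a region were scattered over the chip, across 699 to 761 columns and 961 to 1007 rows. The 295 pairs of neighbours in the regions lay a median of 212 columns and 325 rows apart, and 0 pairs lay within 10 columns and 10 rows of each other.

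Single probes often differed between arrays even where the running mean passed in all of them. R1 had 12 probes that were bright in both untreated arrays, of which 6 and 12 were bright in α-amanitin A and B and 8 in DRB. In R4 there were also 12, of which 3 and 9 were bright in α-amanitin A and B and 5 in DRB. Of the 11 such probes of R5, 2 and 10 were bright in α-amanitin A and B and 7 in DRB. In the same order of arrays it was 2, 5 and 4 of 7 in R2, and 3, 6 and 1 of 7 in R3. In each of the 5 regions α-amanitin B thus shared more of these probes than α-amanitin A did. α-Amanitin A also had the highest median signal of the 5 arrays and the lowest cut-off for bright probes.

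A few probes were bright in every array. They were 4 in R1, 2 in R5 and 1 in each of R2, R3 and R4, together 9 of 300 probes (3.0%), against 42 of the 10000 probes of the stretch (0.42%). This difference follows from the choice of regions with bright probes in both untreated arrays. Among probes bright in both untreated arrays, 9 of 49 in the regions (18.4%) and 33 of 99 outside them (33.3%) were bright in all 5. In R5, probe 28693 gave 62359 and 65535 in untreated A and B, 64923 and 53113 in α-amanitin A and B, and 65535 in DRB, where 65535 is the highest value in any file and so only a lower bound. In R2, probe 24208 gave 47209, 50585, 51171, 38521 and 36917 in the same order. In R1, probe 23151 gave 55854, 48336, 40619, 56767 and 55019. These 3 probes gave at least 36917 in every array. Other probes of the same peaks were not shared: probe 25962 of R3 gave 52056, 47954, 46640 and 35019 in the first 4 arrays and 4896 in DRB.

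**Figure D3:**
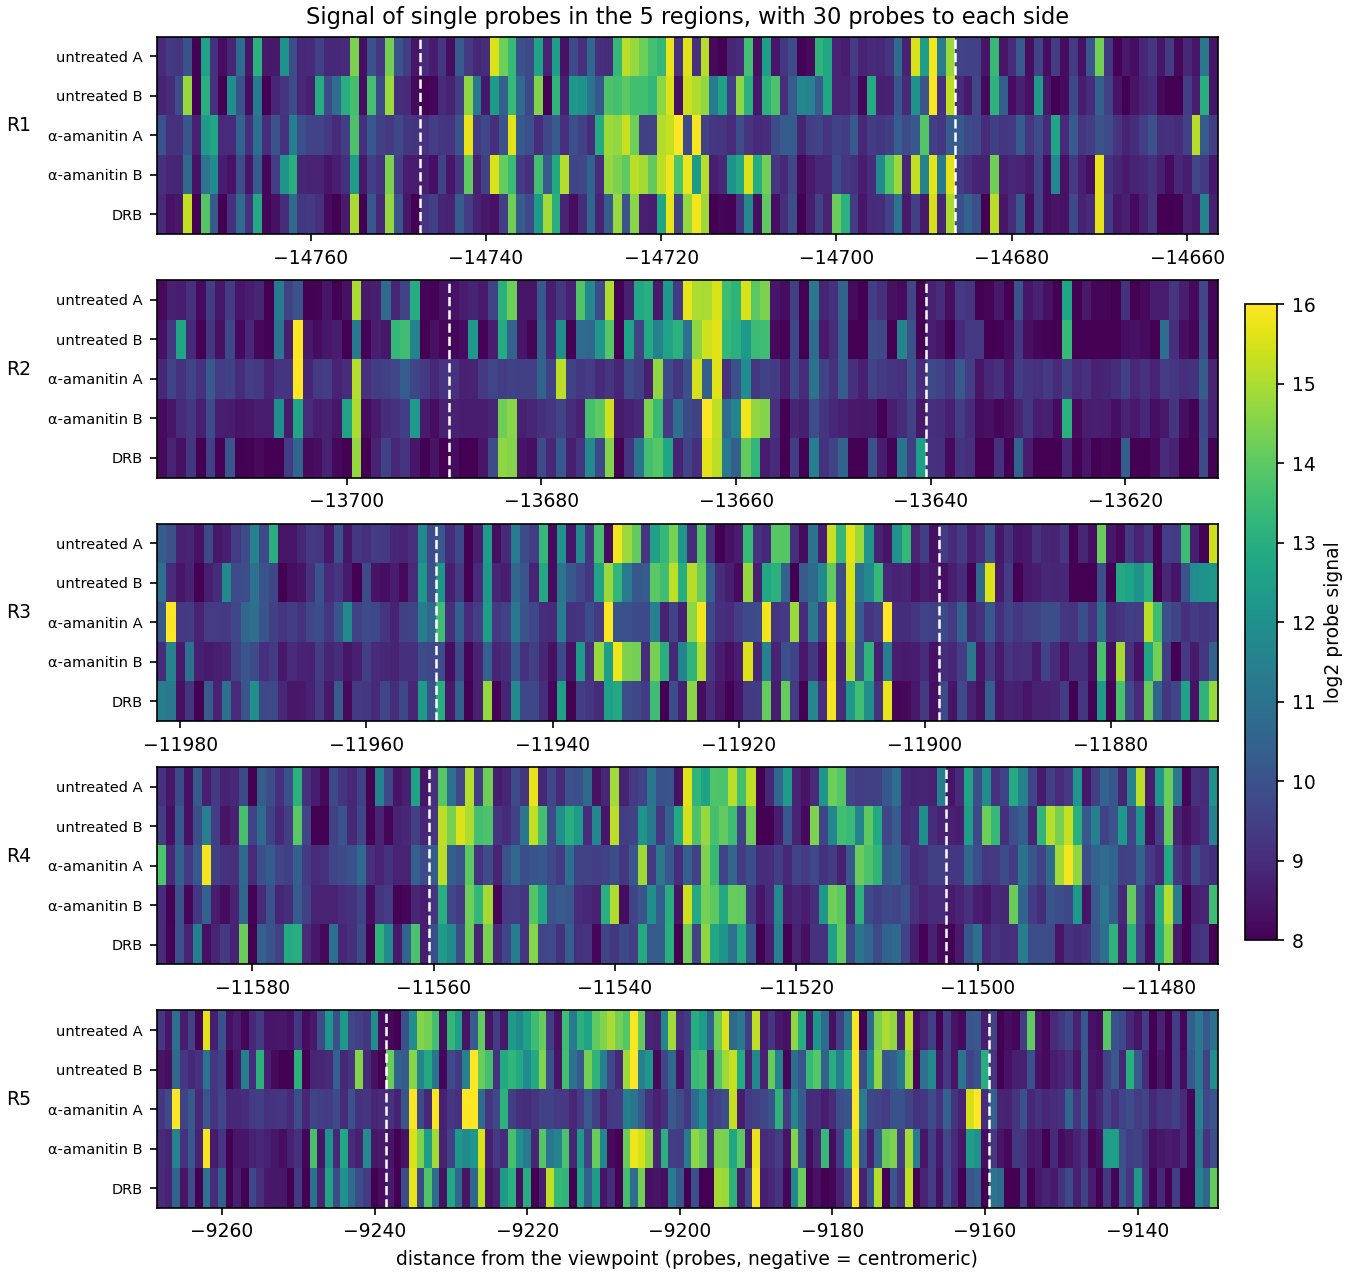
Log2 signal of every single probe in R1 to R5 (between the dashed lines) and in 30 probes to each side, with 1 row per array and distance from the viewpoint in probes on the horizontal axis. Bright probes sit in clusters that recur between arrays, most of all between the untreated arrays and α-amanitin B, while α-amanitin A and DRB show fewer of them.

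Over the whole stretch, the bright probes numbered 361 and 371 in untreated A and B, 395 and 391 in α-amanitin A and B, and 367 in DRB. These are 3.61% to 3.95% of the stretch, where chromosome 7 as a whole has 5% by definition. Untreated A and B shared 148 of them, which is 41.0% of those of A and 39.9% of those of B. Untreated A and α-amanitin B shared 199 (55.1% and 50.9%), more than the untreated pair did. The α-amanitin arrays shared 99 (25.1% and 25.3%), fewer than either shared with DRB, at 153 (38.7% and 41.7%) for A and 158 (40.4% and 43.1%) for B.

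Outside R1 to R5 there were 9 further places above threshold in at least 1 array, making 14 in all. Of the 14, 7 passed in a single array, namely 1 and 2 in untreated A and B, and 3 and 1 in α-amanitin A and B. The highest of these was at probes 28074 to 28129, about 20.2 Mb from the viewpoint, where α-amanitin A reached 10154 and untreated A 3511, untreated B 2930, α-amanitin B 3612 and DRB 5265. This is 1.3 times the threshold in α-amanitin A and at most 0.654 in the other arrays. A place at probes 27005 to 27055 reached 8724 in untreated B (1.24 times the threshold) and 3995, 2209, 3040 and 6086 in untreated A, α-amanitin A, α-amanitin B and DRB. The other 2 places passed in 1 untreated array and in α-amanitin B, at probes 28200 to 28248 (untreated A 1.23, α-amanitin B 1.05) and at probes 28825 to 28869 (untreated B 1.06, α-amanitin B 1.2).

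Read from each array in turn, 7 places were above threshold in untreated A, 5 of which also passed in untreated B, 3 and 6 in α-amanitin A and B, and 3 in DRB. Of the 8 places of untreated B, 5 passed in untreated A, 3 and 6 in α-amanitin A and B, and 3 in DRB. α-Amanitin B had 8 places, of which 6 passed in untreated A, 6 in untreated B and 3 in α-amanitin A. α-Amanitin A had 6, of which 3 passed in each of the untreated arrays and in α-amanitin B. Each untreated array thus shared more places with α-amanitin B than with the other untreated array. No place of the stretch passed in both α-amanitin arrays without passing in both untreated arrays.

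The signal did not fall off evenly with distance from the viewpoint. In bins of 1000 probes, the bin of probes 26001 to 27000, about 23.5 Mb away, had the highest median running mean in every array, at 0.257 and 0.33 of the threshold in the untreated arrays, 0.284 and 0.251 after α-amanitin and 0.268 after DRB. The bin nearest to the viewpoint, about 17.3 Mb away, had 0.139, 0.112, 0.0972, 0.123 and 0.166. The 3 farthest bins had untreated medians of 0.0843 to 0.109. Bright probes made up 6.3% (DRB) to 8.8% (untreated B) of the bin at 23.5 Mb and 1.0% to 2.2% of the bins 33.9 and 31.8 Mb away. The raised level around R4 was not only that of the region: in the 338 probes between R3 and R4, where no window passed in any array, the median was 0.191 (α-amanitin A) to 0.257 (untreated B) of the threshold.

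**Figure D4:**
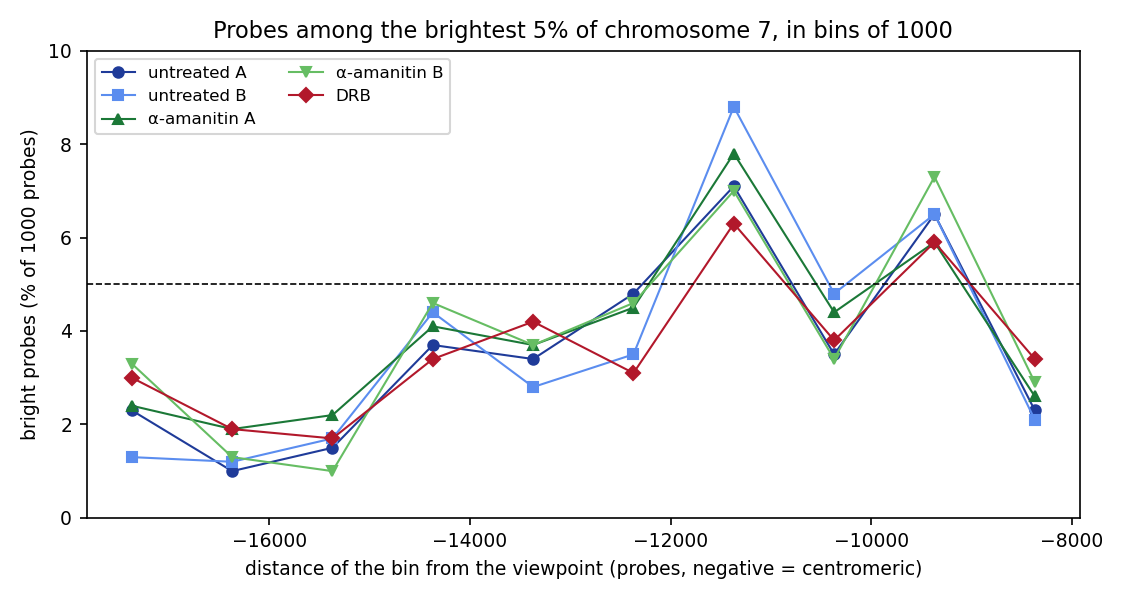
Share of probes among the brightest 5% of chromosome 7 in each array (vertical axis, percent of 1000 probes) in 10 bins along the stretch (horizontal axis, distance of the bin from the viewpoint in probes). The dashed line marks 5%. All 5 arrays rise above the line in the bins about 23.5 and 19.4 Mb from the viewpoint and stay under it in the other 8 bins.

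With the windows that share a probe with R1 to R5 left out, those above threshold were, of 9532 windows, 41 and 42 in untreated A and B, 41 and 42 in α-amanitin A and B, and 0 in DRB. At the centromeric edge, the last window outside the stretch had running means of 2333 and 1707 in untreated A and B, and the first window inside it 2525 and 1449. At the other edge the last window inside had 2409 and 3025 and the first outside 2170 and 3316. All of these lie below threshold. The 10000 probes on the far side of the stretch had 1 untreated region and 0.0602% to 0.572% of windows above threshold, and probes 30001 to 36902, toward the viewpoint, had 6 untreated regions and 2.31% to 6.33%.

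To ask whether α-amanitin changed the signal of any part of the stretch, chromosome 7 was divided into 1991 windows of 29 probes that share no probe, 344 of them in the stretch, and tested with limma on quantile normalized log2 signals of the 4 untreated and α-amanitin arrays. At an adjusted p of 0.05 limma called 0 of the 344 windows, and 0.0% of all 1991. At an unadjusted p below 0.05 there were 14 windows (4.07%), of which 9 were higher after α-amanitin, against 3.67% of all windows (73), so the share was close to that of the chromosome. When arrays were scaled to equal medians instead, 27 windows of the stretch (7.85%) had an unadjusted p below 0.05, against 7.48% of all windows (149), and 3 of the 27 were higher. The median log2 difference over the 344 windows was 0.0044, and over all 1991 it was -0.03. A count of 0 with 2 arrays per condition does not show that the windows were equal.

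The 3 windows with the smallest limma p-values were all higher after α-amanitin, and none shared probes with R1 to R5. At probes 20040 to 20068 the log2 signal was 10.61 and 9.54 in untreated A and B, 12.14 and 12.31 in α-amanitin A and B, and 10.98 in DRB, a difference of 2.15 (standard error 0.59, limma, Benjamini-Hochberg adjusted p = 0.971). At probes 27174 to 27202 it was 10.03, 10.01, 11.74, 12.15 and 11.14 in the same order, a difference of 1.93 (standard error 0.54). At probes 29610 to 29638 it was 9.09, 10.35, 12.21, 11.62 and 9.09, a difference of 2.20 (standard error 0.65). In each the 2 α-amanitin arrays were above the 2 untreated ones, and the limma adjusted p was the same 0.971.

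Leaving out α-amanitin A changed the count. The lone α-amanitin array was then assumed to vary as the untreated ones do, and limma called 3 windows of the stretch and 12 of chromosome 7. The first, at probes 25231 to 25259, had log2 signals of 8.91 and 8.84 in the untreated arrays, 9.09 and 10.12 in α-amanitin A and B (difference without α-amanitin A 1.25, adjusted p = 0.00117 from limma). The others, at probes 24825 to 24853 and 21519 to 21547, differed by 2.52 (limma adjusted p = 0.0162) and 0.57 (limma adjusted p = 0.0463). In all 3 windows the array left out lay closer to the untreated mean than α-amanitin B did.

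**Figure D5:**
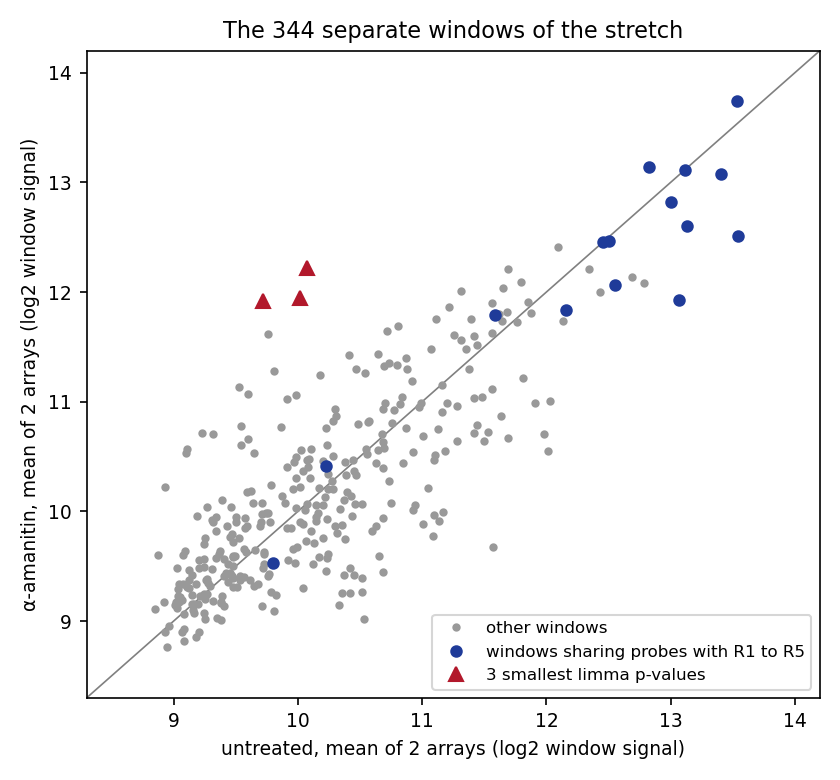
Mean log2 signal of the 2 α-amanitin arrays (vertical axis) against that of the 2 untreated arrays (horizontal axis) for the 344 separate windows of the stretch, with the line of equality. Blue points share probes with R1 to R5, and red triangles are the 3 windows with the smallest limma p-values, which lie above the line. The 15 blue points are mostly at the high end and lie on both sides of the line.

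As a whole, the stretch was dimmer than the rest of chromosome 7. Its mean log2 window signal minus that of the rest was -0.27 and -0.27 in untreated A and B, -0.19 and -0.20 in α-amanitin A and B, and -0.27 in DRB. The untreated arrays had a mean of -0.2719 ± 0.0024 (SD, n = 2) and the α-amanitin arrays one of -0.1928 ± 0.0084 (SD, n = 2), a difference of 0.08 with no overlap between the conditions. With 2 arrays against 2, an exact two-sided permutation test cannot give a p below 0.33. These values count the bright probes around the viewpoint in the rest of the chromosome. With them left out, a comparison added after seeing the data, the stretch was less dim. It then had -0.18 and -0.18 in untreated A and B, -0.11 and -0.11 in α-amanitin A and B, and -0.20 in DRB. The difference between conditions was 0.07.

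The rank order of running means along the stretch differed about as much within as between conditions. Over the 9972 overlapping windows, which share probes and are no replicates, the Spearman correlation was 0.712 for the untreated pair and 0.596 for the α-amanitin pair. Between conditions it was 0.581 (untreated A with α-amanitin A), 0.721 (untreated A with α-amanitin B), 0.629 (untreated B with α-amanitin A) and 0.659 (untreated B with α-amanitin B), a mean of 0.6474 ± 0.0587 (SD over 4 pairs that share arrays). DRB had 0.731 with untreated A and 0.658 with untreated B. With R1 to R5 left out, the untreated pair had 0.68 and the pairs between untreated and α-amanitin arrays 0.544 to 0.689. The likeness thus did not rest on the 5 regions alone. For single probes of the stretch, the correlation was 0.7 and 0.512 to 0.67 for these pairs. No genomic DNA was hybridized as a reference. How far probe properties common to all arrays enter these values was not tested. On the rest of chromosome 7 away from the viewpoint, the running means of the same pairs had 0.666 and 0.539 to 0.749.

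DRB was measured once, so its values have no replicate check. In all 5 regions the log2 signal in DRB was below the untreated mean. The difference was -0.73 in R1, -0.79 in R2, -0.87 in R3, -1.76 in R4 and -0.79 in R5, on regions that were chosen on untreated values. R4 had the most negative value. The median running mean of the stretch was highest in DRB, at 1313. DRB was also the highest on all of chromosome 7, at 1488, and on the other chromosomes, at 1058. The correlation between log2 signals of neighbouring probes of the stretch was lowest in DRB, at 0.0992 against 0.146 to 0.198 in the other arrays. Whether the lower region signals in DRB go with this weaker clustering was not tested. The highest place in DRB was R1, with a peak window that began at probe 23132, between those of the other arrays.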

How the data were processed

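Signals of 5 arrays were analysed: untreated A and B, α-amanitin A and B, and DRB, grouped by the titles in the sample labels. The authors scanned each array with NimbleScan version 2.3.19 and deposited the intensity of every probe in 1 channel, without background correction or normalization. The study put 2 samples on each array, and which sample was in the other dye is not given here. The study designed its probes on mouse genome build m34, but the position of every probe is 0 in the files, so the running number in the probe identifier gave the order. In the stretch 79.1% of these numbers have a probe, so the estimated distances are approximate. The viewpoint was placed at probe 37870. The members and rules were chosen with earlier results of these data known.

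Running means of 29 probes used uncorrected intensity. Thresholds followed the study's rule, a false discovery rate below 0.05 against the mean of 100 seeded shuffles of chromosome 7. All regions double positive in the untreated arrays were named, with the 3 windows of smallest limma p-value. Correlations, region signals and limma used signals quantile normalized over all probes and all 5 arrays. limma 3.58.1 in R 4.3.3 fitted log2 window signals of 4 arrays (lmFit, eBayes with trend, Benjamini-Hochberg). For the level of the stretch, an exact permutation test of 2 arrays against 2 cannot give a p below 0.33. Python 3.11.15, numpy 2.4.6, scipy 1.17.1, pandas 2.3.3 and matplotlib 3.10.9 were used. The region caller and limma fit were tested on simulated data. Alternatives varied the window, averaging, normalization, false discovery rate, seed, joining, pairing and arrays.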

Additional observations from a re-analysis of the deposited data

How the results depend on the processing

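All 5 untreated regions were found under all 8 settings in which they were traced (windows of 15 or 59 probes, a running median, quantile normalized signals, a false discovery rate below 0.01, thresholds without the viewpoint, no saturated probes, adjacent windows joined). Joining adjacent windows keeps the same passing windows, so it could not lose a region. Thresholds without the viewpoint passed more untreated windows, 191 against 158. A running median gave 8 untreated regions, and R4 was then double positive after α-amanitin while R3 and R5 were not. Windows of 15 probes left 1 region (R1) double positive after α-amanitin, with 61 untreated and 23 α-amanitin windows above both thresholds, and windows of 59 probes gave 251 and 133. A false discovery rate below 0.01 gave 38 α-amanitin windows. With 1 untreated array left out there were 7 to 8 regions in untreated cells, 3 of them double positive after α-amanitin. With 1 α-amanitin array left out, 3 to 5 of the 5 regions passed in the other (5 without α-amanitin A). Leaving out 1 array gave 0 to 3 limma windows. The mean correlation of untreated with α-amanitin arrays was 0.7681 with log2 averaging and 0.4674 as Kendall's tau. That with DRB was 0.7461 with 59 probes, 0.7647 with a running median, 0.7999 with log2 averaging and 0.5030 as Kendall's tau. The causes were not tested. Scaling to equal medians moved the median limma difference to -0.38 over chromosome 7 and -0.32 in the stretch. With the letter as a replicate block limma called 0 windows, and same-letter pairs had a mean correlation of 0.6199. Same-letter arrays were not treated as pairs in the main fit, and their deviations had a correlation of -0.24 on chromosome 7. The crossed pairing, added after seeing the data, called 0 windows in the stretch and 1 on chromosome 7. With 2 arrays per condition, 1 for DRB and letter tied to dye, small changes could not be resolved.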
